A study of Mus musculus with 18 samples.

Results

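The genes described here are 34 mouse genes of coagulation and fibrinolysis, read in the liver of mice given asparaginase or PBS at 3 ages. They were listed by name and role, with no measured value in the rule: 9 clotting factors of the extrinsic and common pathways, 8 of the contact and intrinsic pathways, 9 anticoagulants, 6 genes of fibrinolysis and 2 of the vitamin K cycle. Of the 34, 33 were matched by Ensembl identifier among the 37315 genes of the count table, and Klkb1, the gene of plasma prekallikrein, was not analysed here. A filter on low counts kept 32 of them among 16213 genes tested. The gene left out by that filter was Serpina5 (protein C inhibitor), which held between 0 and 6 counts per library, 32 in all, and 0 in 7 of the 18 libraries.

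Livers came from C57BL/6J mice of both sexes aged 2, 8 and 16 weeks. At each age 3 mice received L-asparaginase (Elspar), the leukaemia drug that breaks down asparagine in the blood, at 3 IU per g of body weight, and 3 received the same volume of PBS. Injections were intraperitoneal and daily, with 7 at 2 and 16 weeks and 8 at 8 weeks, and liver was taken 7.5 h after the last. Polyadenylated RNA gave 18 libraries in 6 groups of 3, and no other genotype or treatment enters the groups.

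Clotting runs through a cascade of serine proteases made mostly by hepatocytes as inactive precursors. Tissue factor with factor VII starts it, factors XII, XI, IX and VIII amplify it, and factor X with factor V turns prothrombin into thrombin, which cuts fibrinogen into fibrin. Antithrombin, heparin cofactor II, the protein C system and tissue factor pathway inhibitor hold it back, and plasmin dissolves the clot. In patients asparaginase is known to lower plasma antithrombin, fibrinogen and other clotting proteins, and thrombosis is a recognised side effect of the drug. The levels given here are of RNA in mouse liver, and plasma proteins are not among the data read.

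Total counts per library ran from 24690871 to 46949361. The share of counts from genes of major urinary proteins (Mup) was 0.046% to 0.579% at 2 weeks and 5.39% to 47.9% in adults. Levels are therefore given as CPM, the count divided by the library size in units of 1e+06 after TMM scaling. The hepatocyte markers were present in every group, with a summed level of at least 72112 CPM. In 3 of the 2-week libraries (PBS replicates 1 and 2, asparaginase replicate 3) transcripts of both sexes were found, against the single labelled sex. In the 8-week asparaginase libraries the 14 squamous epithelium markers summed to 771, 412 and 11.1 CPM (replicates 1 to 3), against at most 67.5 CPM elsewhere. Pancreatic acinar and skeletal muscle markers also varied between libraries, with sums of 9.74 to 4726 CPM and 3.37 to 2454 CPM. Each library was taken as 1 mouse, replicate numbers only name libraries, and p-values measure the spread between these libraries.

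In the 9 PBS livers the fibrinogen chains stood highest per length of transcript. The mean level per kb of merged exons was 1153 CPM for Fgg (the gamma chain), 856 CPM for Fga (alpha) and 757 CPM for Fgb (beta). Kng1, the kininogen that carries factor XI and prekallikrein, followed at 504 CPM per kb and Plg (plasminogen) at 477 CPM per kb. The inhibitors Serpind1 (heparin cofactor II) and Serpinc1 (antithrombin) stood at 214 and 177 CPM per kb, close to Serpinf2 (alpha-2-antiplasmin, 272) and F2 (prothrombin, 271). The order among such neighbours depends on the length used: with the longest principal transcript in place of merged exons, F2 stood at 627 and Serpinc1 at 305 CPM per kb.

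Lower on the same scale of CPM per kb were F10 at 105, F5 at 57.4, F9 at 53.1, F7 at 43.8 and F11 at 31.3. The carboxylase Ggcx and the reductase Vkorc1, which keep vitamin K cycling for factors II, VII, IX and X and proteins C, S and Z, stood at 12.6 and 20.5. The lowest levels belonged to F8 (2.08), Tfpi (1.68), F3 (tissue factor, 0.989), Plau (urokinase, 0.641), Vwf (von Willebrand factor, 0.539) and Plat (tissue plasminogen activator, 0.122). F8, Tfpi, Vwf and Plat are known as products of endothelium more than of hepatocytes.

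**Figure D1:**
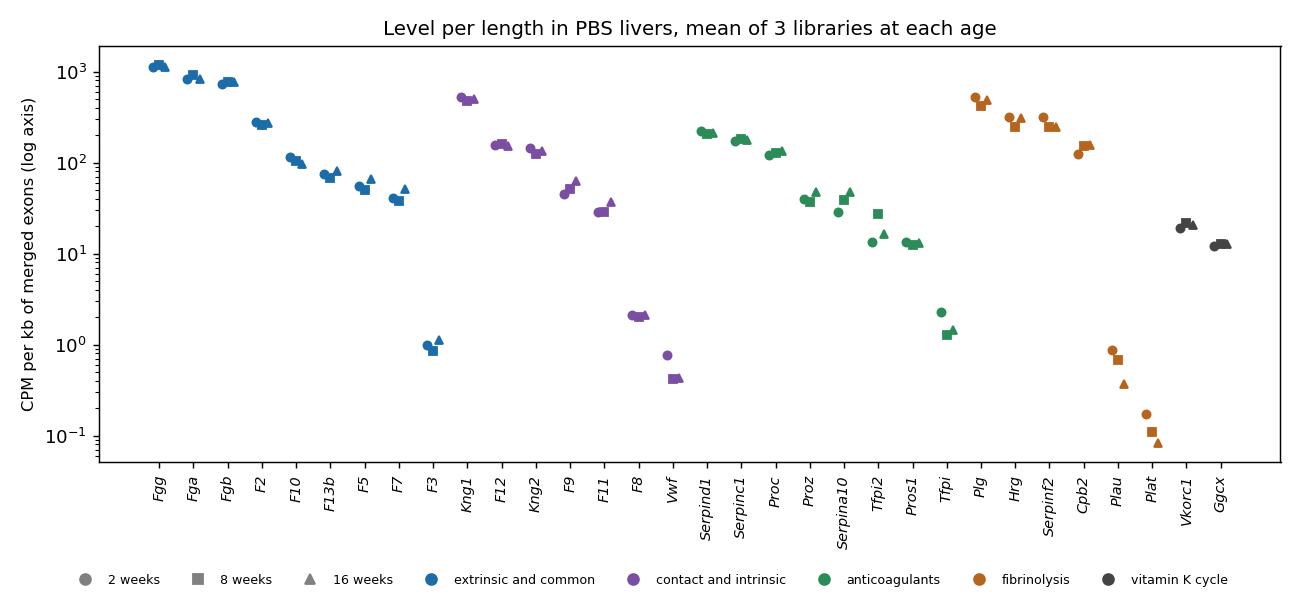
Mean CPM per kb of merged exons (log axis) of 32 genes in PBS livers at 2, 8 and 16 weeks, 1 point per age and 3 libraries per point, coloured by role. Fgg, Fga and Fgb lead at 1153, 856 and 757 as means over the 9 libraries, and Plat is lowest at 0.122.

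Several of the genes lie side by side in the genome (GRCm38). Fgg, Fga and Fgb span 42.14 kb of chromosome 3 (83007724 to 83049863). F7, F10 and Proz, the genes of factors VII and X and protein Z, span 49.993 kb of chromosome 8 (13026034 to 13076026). Hrg (histidine-rich glycoprotein), Kng2 and Kng1 span 131.007 kb of chromosome 16 (22951072 to 23082078). Kng1 and Kng2 are near copies, and the share of reads that could fall to either is uncertain. Exons of Serpinc1, F5, Fgg and Plg overlap a gene on the opposite strand (Zbtb37, Gm16548, Gm30097 and Slc22a3), and exons of Vkorc1 overlap Gm21974 on its own strand, so their counts may hold reads of those neighbours.

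The promoters of the fibrinogen genes, which stood higher after asparaginase at 16 weeks, and of F11, which was lower, are shown for their motifs. Each sequence holds the 250 bases before the RefSeq start on GRCm38.p6, 5′ to 3′ on the gene's strand. Fgg lies at chr3:83007474-83007723 on the plus strand, Fga at chr3:83025903-83026152 on the plus strand, Fgb at chr3:83049864-83050113 on the minus strand and F11 at chr8:45262032-45262281 on the minus strand. Capitals mark matches, on either strand and with no overlap among them here, to the acute phase element CTGGGA bound by STAT3 and to the C/EBP motif TTNNGNAA.
Fgg: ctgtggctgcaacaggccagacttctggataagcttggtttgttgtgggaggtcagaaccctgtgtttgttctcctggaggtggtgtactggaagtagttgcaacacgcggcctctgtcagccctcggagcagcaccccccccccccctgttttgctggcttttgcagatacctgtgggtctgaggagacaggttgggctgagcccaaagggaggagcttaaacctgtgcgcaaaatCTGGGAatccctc
Fga: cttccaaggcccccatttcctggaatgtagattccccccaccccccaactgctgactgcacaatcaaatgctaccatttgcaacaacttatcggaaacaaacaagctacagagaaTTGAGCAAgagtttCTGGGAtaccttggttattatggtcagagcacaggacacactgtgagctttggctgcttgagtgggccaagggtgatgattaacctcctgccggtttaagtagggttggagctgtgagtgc
Fgb: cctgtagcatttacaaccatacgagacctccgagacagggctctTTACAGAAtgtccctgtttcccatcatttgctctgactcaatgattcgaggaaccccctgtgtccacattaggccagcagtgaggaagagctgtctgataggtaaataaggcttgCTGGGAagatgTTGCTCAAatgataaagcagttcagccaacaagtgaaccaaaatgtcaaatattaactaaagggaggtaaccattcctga
F11: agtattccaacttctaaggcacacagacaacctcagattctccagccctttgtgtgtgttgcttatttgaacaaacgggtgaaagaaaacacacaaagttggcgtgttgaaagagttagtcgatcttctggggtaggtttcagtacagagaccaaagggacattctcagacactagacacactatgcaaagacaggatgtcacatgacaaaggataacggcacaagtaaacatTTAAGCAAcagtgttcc

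CTGGGA occurred in all 3 fibrinogen promoters, beginning at base -13 from the start in Fgg, -121 in Fga and -91 in Fgb, and not in that of F11. Of 32851 RefSeq promoter windows of this length, 27% held it. Fga and Fgb also held TTNNGNAA (36.8% of all windows). The F11 window held TTNNGNAA once, and none of these 4 windows held TGATGNAA, the amino acid response element bound by ATF4 (3.45%). Among the 26 of the 33 genes with a RefSeq window outside chromosome 18, 10 held CTGGGA, 13 TTNNGNAA and 1, Proz, TGATGNAA. Proc, on chromosome 18, was left out of this count by rule. A gene with several windows (Tfpi with 2, Tfpi2 with 3) was counted if any of them matched, whereas the shares of all windows are per window. The 10 with CTGGGA included Serpind1, called lower in the mean over ages, and F9, lower in every asparaginase library at 16 weeks. Both also held TTNNGNAA. These are matches of letters, not sites of binding.

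At 2 weeks none of the 32 genes passed an adjusted p of 0.05 between asparaginase and PBS (edgeR quasi-likelihood test, Benjamini-Hochberg over all 16213 genes), where 0.432% of all genes did. Factor XI, the protease that activates factor IX, stood furthest apart. The kininogens were higher in all asparaginase libraries than in all PBS libraries, as were F5 and Plau. At an unadjusted p under 0.05, 6 of the 32 were counted, against 12.6% of all genes. DESeq2 called 3 of them (F11 lower, Kng1 and Kng2 higher; 2.79% of all genes) and limma-voom 1 (F11; 1.07%).

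F11 stood at 64.5, 61.9 and 64.4 CPM in the 2-week PBS libraries and at 22.9, 46.9 and 41.6 CPM in the asparaginase libraries. The groups did not overlap, and asparaginase replicate 1 lay furthest below. The log2 fold change was -0.998 ± 0.23 (SE), with an adjusted p of 0.0838 in edgeR. Without PBS replicate 3 the value was -1.49 and the adjusted p 0.0377. The PBS libraries then left are both labelled male, so the sex term came from the asparaginase libraries alone. That value thus rests on asparaginase replicate 1, the only treated male, set against PBS replicates 1 and 2. Both of these PBS libraries held transcripts of both sexes. In bulk liver, fewer cells of a type and less RNA per cell cannot be told apart.

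Kng1 stood at 1808, 1707 and 1672 CPM in PBS livers and at 2209, 2421 and 2354 CPM with asparaginase, a log2 fold change of 0.42 ± 0.14 (SE, edgeR adjusted p = 0.207). Kng2 stood at 403, 418 and 375 CPM in PBS livers and at 514, 500.1 and 522 CPM with asparaginase (0.39 ± 0.12 SE, edgeR adjusted p = 0.189). F5, the cofactor of factor Xa, stood at 380.2, 454 and 406 CPM in PBS livers and 503, 552 and 489 CPM with asparaginase (0.31 ± 0.14 SE, edgeR adjusted p = 0.379). For these genes every asparaginase library was above every PBS library.

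In the other roles the furthest were Pros1, Plat and Ggcx. Pros1 (protein S, the cofactor of activated protein C) stood at 61.4, 55.2 and 48.4 CPM in PBS livers and 39.2, 45.9 and 49.5 CPM with asparaginase, and the groups overlapped (-0.30 ± 0.14 SE, edgeR adjusted p = 0.389). Plat stood at 0.770, 1.25 and 1.22 CPM against 0.783, 1.13 and 0.847 CPM (-0.34 ± 0.34 SE, edgeR adjusted p = 0.777). Ggcx stood at 37.3, 37.5 and 44.8 CPM against 26.2, 43.3 and 34.3 CPM (-0.36 ± 0.12 SE, edgeR adjusted p = 0.235). Both of these overlapped between the groups. Serpinc1, the gene of antithrombin, stood at 1563, 1409 and 1509 CPM in PBS livers and at 1372, 1561 and 1488 CPM with asparaginase, a log2 fold change of -0.05 with a 95% interval from -0.36 to 0.26 (edgeR adjusted p = 0.951). Over the 32 genes the median log2 fold change was -0.039, and 13 were positive. In 5 genes the libraries of the groups did not overlap (4 above, 1 below), against 16.7% of all genes. Pancreatic acinar markers summed to 76.1 to 194 CPM in PBS livers and 652 to 1874 CPM with asparaginase at this age, and their part in these values was not tested.

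At 8 weeks again none of the 32 passed (edgeR adjusted p under 0.05; 0.364% of all genes did). Of the 32, 10 had a positive and 22 a negative log2 fold change, with a median of -0.134, where 50.9% of all genes were positive. Of the 15 hepatocyte markers 14 were negative as well, with a median of -0.249, and their part in these values was not tested. With library totals in place of TMM, which moved the median of all genes up by 0.365, the median of the 32 was 0.239, and 5 rose (F3, Hrg, Kng1, Kng2 and Vwf) and 0 fell. In 13 genes the libraries did not overlap between groups, 12 of them lower with asparaginase, where 15.9% of all genes did not overlap. These 12 were Cpb2, F13b, F2, Fga, Ggcx, Plg, Proc, Serpina10, Serpinc1, Serpind1, Tfpi2 and Vkorc1. The separations take no account of sex, and the asparaginase group held more males. Between adult males and females 22 of the 32 log2 fold changes were negative, with a median of -0.091. The part of sex in the separations was not tested. At an unadjusted p under 0.05, 7 of 32 were counted, against 18.4% of all genes. DESeq2 called Ggcx and Tfpi2 as lower (4.06% of all genes), and limma-voom called 0 (0.53%).

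Tfpi2, a Kunitz inhibitor of the tissue factor pathway and of plasmin, stood at 49.99, 49.5 and 45.0 CPM in PBS livers and at 24.8, 34.5 and 34.7 CPM with asparaginase. Every asparaginase library was below every PBS library, by a log2 fold change of -0.73 ± 0.16 (SE, edgeR adjusted p = 0.0589). It passed when 2-week PBS replicate 1 (-0.71, adjusted p 0.0408) or 8-week asparaginase replicate 3 (-0.76, adjusted p 0.0474) was left out. Ggcx, the gamma-carboxylase of the vitamin K dependent factors, stood at 34.3, 45.3 and 43.8 CPM in PBS livers and 27.8, 33.0 and 29.0 CPM with asparaginase (-0.52 ± 0.12 SE, edgeR adjusted p = 0.065). Vkorc1, which recycles vitamin K, stood at 21.9, 16.4 and 15.9 CPM against 13.2, 13.8 and 12.9 CPM (-0.41 ± 0.12 SE, edgeR adjusted p = 0.108). Both genes of the cycle were thus lower in every asparaginase library at this age.

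Cpb2, the gene of the fibrinolysis inhibitor TAFI, stood at 286, 233 and 235 CPM in PBS livers and 162, 202 and 184 CPM with asparaginase (-0.48 ± 0.16 SE, edgeR adjusted p = 0.154). Serpinc1 stood at 1885, 1364 and 1391 CPM against 1209, 1286 and 1331 CPM. All asparaginase libraries lay below, but PBS replicate 1 was far above the other PBS libraries, and the log2 fold change was -0.25 with a 95% interval from -0.57 to 0.07 (edgeR adjusted p = 0.383).

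F3 and Vwf were the furthest in the upward direction. F3 stood at 2.23, 1.99 and 2.22 CPM in PBS livers and 5.12, 2.76 and 2.63 CPM with asparaginase (0.84 ± 0.26 SE, edgeR adjusted p = 0.124). Its highest value came from asparaginase replicate 1, the library with the highest level of squamous epithelium markers. Without replicates 1 and 2 of that group the log2 fold change of F3 was 0.40. Vwf stood at 6.15, 6.03 and 8.19 CPM against 8.88, 6.41 and 9.94 CPM and overlapped (0.37 ± 0.20 SE, edgeR adjusted p = 0.341). Kupffer cell markers were lower at this age in the asparaginase libraries (summed level 244 to 303 CPM against 323 to 603 CPM), all 12 with negative log2 fold changes and 0 past the threshold in edgeR (10 at an unadjusted p under 0.05).

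At 16 weeks the 3 fibrinogen chains were higher in every asparaginase library than in any other library of the study. Their summed level was 8354, 7736 and 7326 CPM in the PBS livers and 13993, 12582 and 11135 CPM with asparaginase. Still, none of the 32 genes passed an adjusted p of 0.05 in edgeR, where 0.234% of all genes did. At an unadjusted p under 0.05, 12 of the 32 were counted, against 11.4% of all genes, and 14 did not overlap between groups (5 above, 9 below), against 19.7%. DESeq2 called 6 (Fga, Fgb and Fgg higher, F11, F13b and Serpind1 lower; 2.05% of all genes) and limma-voom 0 (0.234%).

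Fga stood at 2645, 2591 and 2259.7 CPM in PBS livers and at 4858, 4459 and 3958 CPM with asparaginase. The log2 fold change was 0.82 ± 0.19 (SE), 1.77-fold, with an edgeR adjusted p of 0.114. Fgb stood at 3144, 2823 and 2804 CPM against 5112, 4545 and 4001 CPM (0.60 ± 0.17 SE, edgeR adjusted p = 0.2). Fgg stood at 2565, 2321 and 2262 CPM against 4022, 3578 and 3176 CPM (0.56 ± 0.18 SE, edgeR adjusted p = 0.268). No library of the asparaginase group overlapped the PBS range in any of the chains. In DESeq2 the adjusted p was 0.000149 for Fga, 0.00445 for Fgb and 0.0318 for Fgg, and in edgeR Fga passed only without 2-week PBS replicate 1 (0.83, adjusted p 0.0424) among the libraries left out in turn.

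Fibrinogen is an acute phase protein, and the other acute phase genes at this age were mostly positive as well. Of 18 such genes, 16 had positive log2 fold changes with a median of 0.77, and 2 rose, Serpina3n (1.37 ± 0.15 SE, edgeR adjusted p = 0.0014) and Itih4 (0.89 ± 0.14 SE, edgeR adjusted p = 0.0188). Their summed level was 7842 to 8958 CPM in PBS livers and 12238 to 15772 CPM with asparaginase. Skeletal muscle markers differed between the same groups (48.1 to 279 CPM with PBS, 3.37 to 21.8 CPM with asparaginase). Pancreatic acinar markers summed to 12.9 to 719 CPM with PBS and 13.6 to 4726 CPM with asparaginase. Of the 15 hepatocyte markers 12 were negative, with a median of -0.226. The part of these lists in the values at 16 weeks was not tested. Neither at 2 weeks nor at 8 weeks did the fibrinogen groups separate upward: the sums were 6716 to 9166 CPM against 6793 to 8744 CPM, and 6987 to 8836 CPM against 6638 to 7133 CPM. The acute phase sum did separate upward at 2 weeks, with 7859 to 9238 CPM in PBS livers and 9292 to 11842 CPM with asparaginase (13 of 18 genes positive). At 8 weeks it was 6405 to 8207 CPM against 6136 to 6920 CPM (6 of 18 positive). A link between fibrinogen and the acute phase genes was not tested.

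F11 at 16 weeks stood at 85.6, 90.1 and 70.0 CPM in PBS livers and at 45.5, 46.0 and 40.8 CPM with asparaginase. The groups did not overlap, and the log2 fold change was -0.86 ± 0.22 (SE, edgeR adjusted p = 0.174). At 8 weeks F11 had stood at 57.4, 70.4 and 66.6 CPM against 65.8, 53.4 and 37.3 CPM, with overlap (-0.27 ± 0.21 SE, edgeR adjusted p = 0.507). Among the vitamin K dependent factors, F7 and F9 had log2 fold changes of -0.32 ± 0.13 and -0.30 ± 0.13 at 16 weeks (SE, edgeR adjusted p = 0.396 and 0.393).

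**Figure D2:**
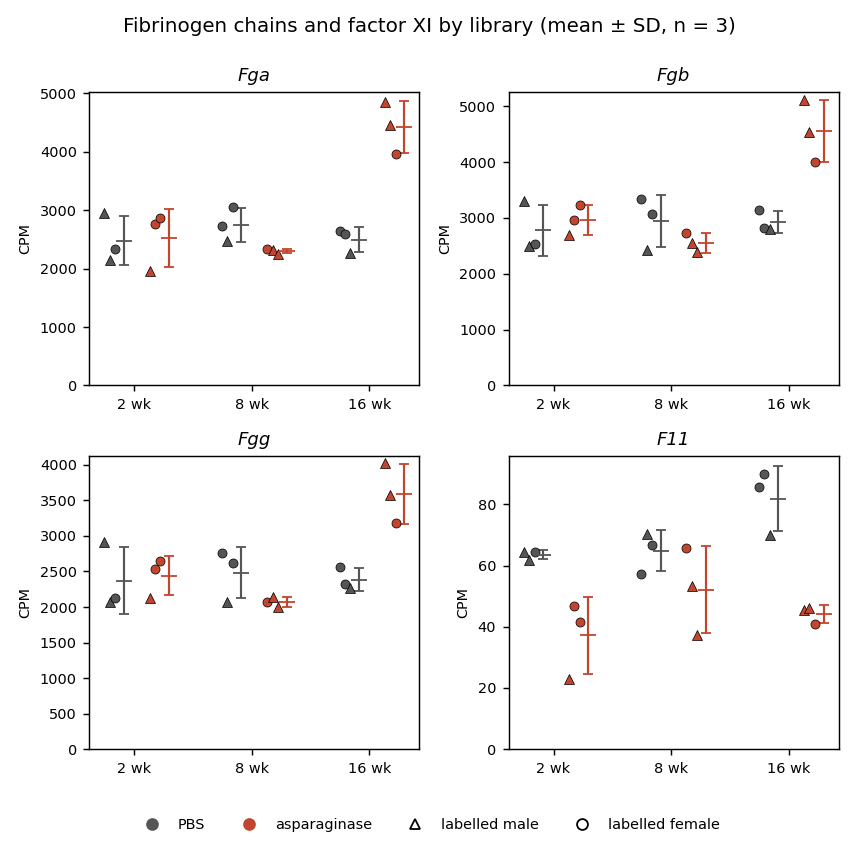
CPM of Fga, Fgb, Fgg and F11 in each of the 18 libraries by age and treatment, with the mean and SD of 3 libraries beside the points and the labelled sex as the symbol. The 16-week asparaginase libraries hold 3958 to 4858 CPM of Fga, above all others, and F11 lies lower with asparaginase at 2 and 16 weeks without overlap.

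Among the inhibitors at 16 weeks Serpina10, the protein Z dependent inhibitor of factor Xa, stood at 165, 180.4 and 153 CPM in PBS livers and 293, 236 and 224 CPM with asparaginase. All asparaginase libraries lay above (0.58 ± 0.22 SE, edgeR adjusted p = 0.343). Tfpi2 stood at 27.4, 26.7 and 31.5 CPM against 41.6, 34.1 and 32.7 CPM, above without overlap, in contrast to its lower level at 8 weeks (0.27 ± 0.16 SE, edgeR adjusted p = 0.562). Plau stood at 1.14, 0.934 and 0.525 CPM against 0.809, 1.40 and 1.45 CPM and overlapped (0.75 ± 0.28 SE, edgeR adjusted p = 0.334). Serpinc1 stood at 1577, 1534 and 1403 CPM against 1424, 1354 and 1532 CPM, with overlap (-0.02, 95% interval -0.33 to 0.29, edgeR adjusted p = 0.976). Ggcx stood at 43.5, 42.5 and 38.6 CPM against 33.6, 34.1 and 37.1 CPM, lower in every library (-0.20 ± 0.12 SE, edgeR adjusted p = 0.577).

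The other 9 genes are given by their ranges. Prothrombin (F2) ranged from 1039 to 1592 CPM over the 18 libraries, F10 from 211 to 364 CPM, and F12, which starts the contact pathway, from 242 to 386 CPM. Plasminogen (Plg) ranged from 1335 to 2184 CPM and Hrg, which binds it, from 402 to 763 CPM. Protein C (Proc) ranged from 240 to 377 CPM, protein Z (Proz) from 162 to 288 CPM, F13b from 142 to 220 CPM and F8 from 15.3 to 26.2 CPM. None of these genes passed in edgeR between asparaginase and PBS at any age.

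Averaged over the 3 ages, 3 of the 32 genes passed, and all 3 fell: F11, Ggcx and Serpind1. With library totals in place of TMM, which moved the median of all genes up by 0.213, 9 rose and F11 alone fell. Of all genes 5.41% passed in this comparison, and 13 of the 32 against 22.4% of all genes had an unadjusted p under 0.05. Factor XI fell by 0.71 ± 0.13 on the log2 scale (SE, edgeR adjusted p = 0.00963), a level 1.64-fold lower, and its value was negative at each age. The carboxylase Ggcx fell by 0.36 ± 0.07 (SE, edgeR adjusted p = 0.0141), 1.28-fold. Serpind1, the thrombin inhibitor heparin cofactor II, fell by 0.35 ± 0.07 (SE, edgeR adjusted p = 0.0201), 1.27-fold.

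Serpind1 stood at 457, 484 and 529.7 CPM in PBS livers and 363, 531 and 434 CPM with asparaginase at 2 weeks, where the groups overlapped. At 8 weeks it stood at 490.2, 448 and 419 CPM against 376, 346 and 338 CPM, and at 16 weeks at 434, 516 and 440.4 CPM against 347, 341 and 324 CPM. In both adult ages every asparaginase library was below every PBS library. The log2 fold changes at 2, 8 and 16 weeks were -0.25 ± 0.13, -0.33 ± 0.13 and -0.45 ± 0.13 (SE, edgeR adjusted p = 0.457, 0.194 and 0.209).

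Next in the mean came F13b (the carrier subunit of factor XIII), Proc (protein C), Kng2, Cpb2 and Kng1, with edgeR adjusted p of 0.0654, 0.0667, 0.0943, 0.0954 and 0.111. F13b, Proc and Cpb2 were negative (-0.19, -0.24 and -0.29) and the kininogens positive (0.21 and 0.23). Serpinc1 had a mean log2 fold change of -0.11 ± 0.08 (SE), and its 95% interval ran from -0.29 to 0.07 (edgeR adjusted p = 0.481). In role groups the medians were 0.057 for both groups of clotting factors, -0.133 for anticoagulants, -0.045 for fibrinolysis and -0.269 for the vitamin K cycle, against 0.00459 for all genes. F3 and Plau stood furthest up in the mean in their roles (0.26 ± 0.16 and 0.37 ± 0.15 SE, edgeR adjusted p = 0.35 and 0.162).

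The calls in the mean rest on few libraries. Ggcx also lost its call with no sex term, with 1 sex term for all ages and with sex fitted only in the adults (adjusted p 0.074, 0.0673 and 0.0716). All 3 were lost without 2-week asparaginase replicate 1 or without 16-week asparaginase replicate 3, where the adjusted p of F11 was 0.0667 and 0.0589. The calls were not kept either in the fit without the 3 libraries of mixed sex. That fit also had no sex term at 2 weeks and left replicate 3 as the only 2-week PBS library. The parts of these changes cannot be told apart. Without 8-week PBS replicate 2, Serpind1 was lost (0.0594). Without 16-week PBS replicate 3, or without 8-week asparaginase replicate 1, or without both squamous-rich libraries, F11 alone remained. Without 8-week PBS replicate 1 the count was 7, and without 2-week PBS replicate 3 it was 5. Each group held a library with no other of its labelled sex. Without that library, the sex term at its age came from the other treatment group alone. Hepatocyte markers had a median of -0.263 in the mean, with 3 of 15 called as lower (Apoc3, Ttr and Trf), and their part in these values was not tested.

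**Figure D3:**
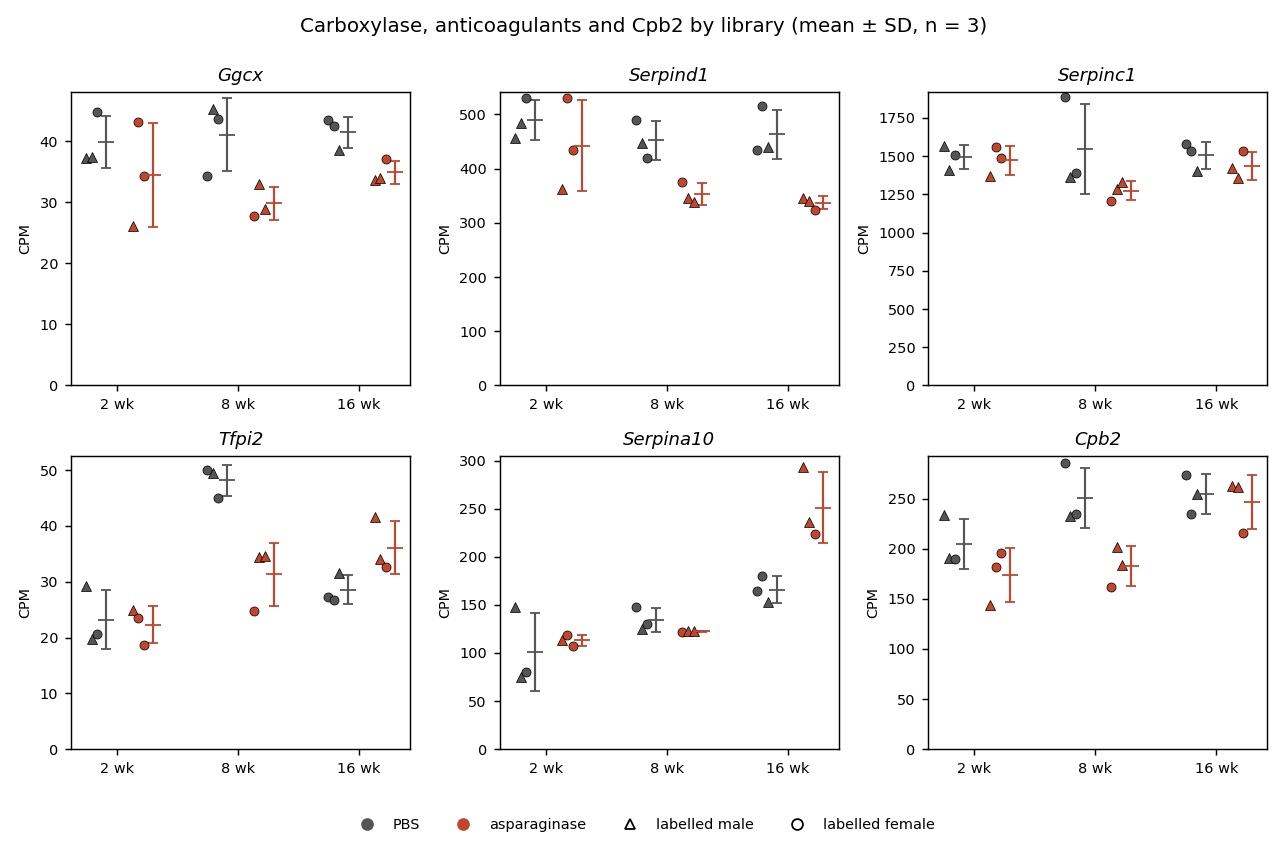
CPM of Ggcx, Serpind1, Serpinc1, Tfpi2, Serpina10 and Cpb2 in each library by age and treatment, with mean and SD of 3 libraries. Serpind1 is lower with asparaginase without overlap at 8 and 16 weeks, Serpinc1 stays between 1209 and 1885 CPM in all libraries, and Tfpi2 peaks in the 8-week PBS livers at 45.0 to 49.99 CPM.

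Whether the effect of asparaginase differed between the ages was tested jointly. None of the 32 passed in edgeR (0% of all genes), 5 had an unadjusted p under 0.05 (9.43% of all genes), DESeq2 called 2, Fga and Tfpi2 (0.956%), and limma-voom called 0 (0.00617%). The 5 were F5, Fga, Fgb, Fgg and Tfpi2, with edgeR adjusted p from 0.278 for Tfpi2 to 0.489 for Fgg. The higher fibrinogen at 16 weeks was therefore not shown to differ from the other ages in edgeR.

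Adult PBS livers (8 and 16 weeks averaged) were compared with 2-week PBS livers. Of the 32 genes, 8 passed, where 35.5% of all genes did. The 5 that fell were Tfpi, Vwf, Plau, Plat and Serpinf2, and the 3 that rose were Tfpi2, Serpina10 and F9. None of the 9 genes of the extrinsic and common pathways passed: fibrinogen, prothrombin and factors VII, X and V stood between -0.24 and 0.06 on the log2 scale. Fibrinolysis had the lowest median, -0.354, and 3 of its 6 genes fell. Without a sex term none of these 3 passed (adjusted p 0.0643 for Plau, 0.0712 for Plat and 0.0509 for Serpinf2).

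Tfpi, the main inhibitor of tissue factor with factor VIIa, stood at 11.0, 13.4 and 13.1 CPM at 2 weeks and at 5.99, 7.59 and 8.51 CPM (lowest, median, highest) in the 6 adult PBS livers. It fell by 0.80 ± 0.09 on the log2 scale (SE, edgeR adjusted p = 3.04e-05), 1.74-fold, and adult and 2-week livers did not overlap with PBS or asparaginase. Vwf stood at 10.3, 13.6 and 12.8 CPM at 2 weeks and at 5.64, 6.46 and 8.41 CPM in adults. It fell by 0.93 ± 0.16 (SE, edgeR adjusted p = 0.000774), 1.91-fold, without overlap in PBS livers.

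The plasminogen activators were at very low levels, with 15 to 98 counts per library for Plau and 10 to 66 for Plat, and were lower still in adults. Plau stood at 1.72, 2.17 and 2.30 CPM at 2 weeks and at 0.525, 1.04 and 2.32 CPM in adults. It fell by 1.02 ± 0.21 (SE, edgeR adjusted p = 0.00243), with overlap through 8-week PBS replicate 3. Plat stood at 0.770, 1.25 and 1.22 CPM at 2 weeks and 0.385, 0.595 and 0.824 CPM in adults, and fell by 1.01 ± 0.29 (SE, edgeR adjusted p = 0.0154). Serpinf2, the main inhibitor of plasmin, stood at 724, 707 and 803 CPM at 2 weeks and 476, 577 and 710.2 CPM in adults, and fell by 0.46 ± 0.11 (SE, edgeR adjusted p = 0.00624). The ages overlapped in both genes, in Serpinf2 through 16-week PBS replicate 2.

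Markers of endothelium moved in the same comparison, where 35.5% of all genes passed. Of 15, 10 fell, with a median of -0.472, and their summed level was 435 to 525 CPM at 2 weeks against 331 to 429 CPM in adult PBS livers. Of 12 stellate cell and fibroblast markers 8 fell, and of 6 platelet markers tested 3 fell (Pf4, Ppbp and Itgb3). The part of these cells in the lower Tfpi, Vwf and Plat was not tested.

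Tfpi2 stood at 29.3, 19.7 and 20.6 CPM at 2 weeks and at 26.7, 38.2 and 49.99 CPM in adults, and rose by 0.76 ± 0.14 (SE, edgeR adjusted p = 0.000949). The adult ages differed in level. Tfpi2 stood at 45.0 to 49.99 CPM in the 8-week PBS livers. In the 16-week PBS livers it stood at 26.7 to 31.5 CPM, which overlapped the 2-week range. A rise between 2 and 16 weeks was not tested on its own. Serpina10 stood at 147, 75.4 and 80.3 CPM at 2 weeks and at 125, 150.3 and 180.4 CPM in adults, and rose by 0.61 ± 0.19 (SE, edgeR adjusted p = 0.0229). F9, the X-linked gene of factor IX, stood at 130.3, 133 and 109 CPM at 2 weeks and at 133, 159 and 176 CPM in adults, and rose by 0.33 ± 0.11 (SE, edgeR adjusted p = 0.0269). In these 3 genes the ranges overlapped.

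**Figure D4:**
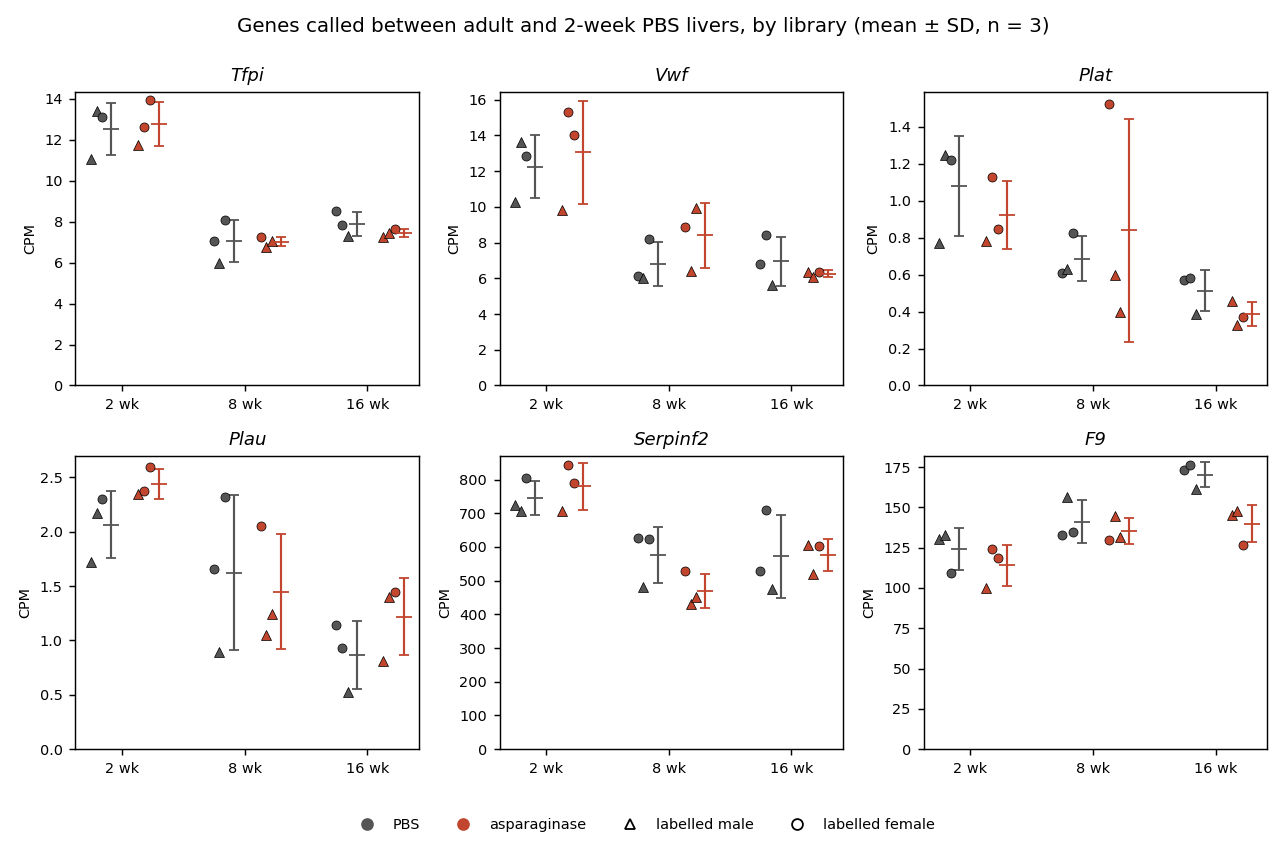
CPM of Tfpi, Vwf, Plat, Plau, Serpinf2 and F9 in each library by age and treatment, with mean and SD of 3 libraries. Tfpi lies at 11.0 to 13.9 CPM in all 2-week libraries and at 5.99 to 8.51 CPM in all adult libraries.

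In this comparison, which averages the adult ages, Tfpi, Tfpi2 and Vwf passed with each of the 18 libraries left out in turn. Without 2-week PBS replicate 3 only these 3 passed (F9 at 0.09, adjusted p 0.661; Serpina10 at 0.40, adjusted p 0.317). In that fit the 2-week PBS libraries were all labelled male, and the sex term at 2 weeks came from the asparaginase libraries. Plat was also lost without 2-week PBS replicate 2 or 16-week PBS replicate 3 (adjusted p 0.0875 and 0.0722), and Serpina10 without 2-week PBS replicate 2 (0.0947). F9 was also lost without 8-week PBS replicate 2, 16-week PBS replicate 1 or 16-week PBS replicate 2 (0.0739, 0.0509 and 0.0503). Averaged over PBS and asparaginase livers, a comparison added after the values were seen, 15 of the 32 passed where 51.4% of all genes did, with 11 that fell and 4 that rose (Tfpi2, Serpina10, F9 and Cpb2). The 11 were Tfpi, Vwf, Serpinf2, Plau, Kng2, Plg, Kng1, Plat, Serpind1, F13b and F2. Thus F13b and F2, of the extrinsic and common pathways, passed there but not in PBS livers alone. Between adult and 2-week PBS livers, scaling to library totals without TMM moved the median of all genes down by 0.753. With it 0 genes rose and 30 fell, and the sign of F9 and Serpina10 turned (-0.42 and -0.13).

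Between 16 and 8 weeks in PBS livers none of the 32 passed (edgeR; 0.413% of all genes did), and 6 had an unadjusted p under 0.05 (15.4% of all genes). Tfpi2 was nearest, at 49.99, 49.5 and 45.0 CPM at 8 weeks and 27.4, 26.7 and 31.5 CPM at 16 weeks. The groups did not overlap (-0.77 ± 0.15 SE, edgeR adjusted p = 0.0515). DESeq2 called Tfpi2 and F5 (3.39% of all genes) and limma-voom Tfpi2 (0.456%), and in edgeR Tfpi2 passed without 2-week PBS replicate 1 or 2, or without 8-week PBS replicate 3 (adjusted p 0.0256, 0.0388 and 0.0438). The 8-week PBS livers are thus the group in which Tfpi2 stood highest, and they serve as the controls of its lower level after asparaginase at 8 weeks.

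Adult males were compared with adult females, averaged over 8 and 16 weeks. All 3 genes that passed, F7, Plau and Kng2, were lower in males, where 12.9% of all genes passed. F7, the protease that tissue factor activates, stood at 54.2, 59.8 and 73.8 CPM (lowest, median, highest) in the 6 males and at 64.5, 87.1 and 119 CPM in the 6 females (-0.42 ± 0.09 SE, edgeR adjusted p = 0.0145). Plau stood at 0.525, 0.974 and 1.40 CPM in males and 0.934, 1.55 and 2.32 CPM in females (-0.82 ± 0.19 SE, edgeR adjusted p = 0.0165). Kng2 stood at 282, 334 and 380.3 CPM in males and 320.1, 398 and 421 CPM in females (-0.28 ± 0.08 SE, edgeR adjusted p = 0.0467). The sexes overlapped in all 3. These levels mix sex with treatment, since 4 of the 6 males but 2 of the 6 females received asparaginase, whereas the fitted differences are taken within the groups. In PBS livers alone F7 stood at 58.1 and 73.8 CPM in the 2 males and at 64.5 to 119 CPM in the 4 females, and in asparaginase livers at 54.2 to 61.5 CPM in the 4 males and at 67.3 and 83.7 CPM in the 2 females. F7 and Plau were lost without 8-week PBS replicate 2 (adjusted p 0.0639 and 0.0622), 16-week PBS replicate 3 (0.0979 and 0.117) or 8-week asparaginase replicate 1 (0.052 and 0.068), and F7 without 16-week asparaginase replicate 3 (0.0578). Kng2 passed only when the library left out was 2-week PBS replicate 1, 8-week PBS replicate 1 or 8-week PBS replicate 3, and its adjusted p reached 0.218.

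The other genes of haemostasis, 40 serpins, receptors, annexins and related genes of which 39 were tested, were read from a separate list. At a single age 0 passed between asparaginase and PBS in edgeR, with 3, 10 and 5 at an unadjusted p under 0.05 at 2, 8 and 16 weeks. Of all genes 0.432%, 0.364% and 0.234% passed at these ages, and 12.6%, 18.4% and 11.4% had an unadjusted p under 0.05. In the mean over ages, where 5.41% of all genes passed, 1 of 39 fell, S100a10, a partner of annexin A2 at the plasminogen receptor (-0.58 ± 0.13 SE, edgeR adjusted p = 0.0288). Between adult and 2-week PBS livers 14 rose and 12 fell of 39, where 35.5% of all genes passed. Anxa2, the plasminogen receptor subunit annexin A2, fell by 1.45 ± 0.17 on the log2 scale (SE, edgeR adjusted p = 5.9e-05). Serpina1e, 1 of several near-identical alpha-1-antitrypsin genes whose reads may be split uncertainly, rose by 1.51 ± 0.18 (SE, edgeR adjusted p = 6.38e-05), and Serping1 (C1 inhibitor, which also blocks factors XIIa and XIa) rose by 1.15 ± 0.17 (SE, edgeR adjusted p = 0.000283). Between 16 and 8 weeks, where 0.413% of all genes passed, Serpine2, a thrombin inhibitor of tissues, rose by 2.00 ± 0.32 (SE, edgeR adjusted p = 0.0248). It stood at 1.53 to 2.72 CPM at 8 weeks and at 3.56, 4.68 and 16.6 CPM (lowest, median, highest) at 16 weeks. The highest value came from the only male of that group. Serpine2 was also higher in adult males than in females (1.03 ± 0.23 SE, edgeR adjusted p = 0.0139).

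Between adult males and females 7 of the 39 genes of this list were higher and 6 lower in males, where 12.9% of all genes passed. The thrombin receptor F2r stood at 17.5, 25.3 and 28.0 CPM in males and at 10.6, 11.7 and 16.4 CPM in females, without overlap (0.97 ± 0.10 SE, edgeR adjusted p = 8.38e-05). Plgrkt, a plasminogen receptor, was lower in all males at 3.05 to 4.18 CPM, against 5.34 to 6.89 CPM (-0.78 ± 0.13 SE, edgeR adjusted p = 0.00251). Serpina1e and Serpina1c were higher in males (1.44 ± 0.15 and 0.52 ± 0.11 SE, edgeR adjusted p = 9.67e-05 and 0.0106), and both overlapped between the sexes.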

How the data were processed

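The authors deposited raw read counts per Ensembl gene for 18 liver libraries. TopHat2 2.0.9, TopHat and DESeq2, and the mouse builds GRCm38 and mm10, are named per the submitters' processing notes. Not given in the sources used here are the read counter and its use of strand. Total counts per library ran from 24690871 to 46949361. Genes were kept by filterByExpr (minimum count 10, minimum total 15), scaled by TMM and tested with edgeR 4.0.16 (quasi-likelihood, limma 3.58.1, R 4.3.3) in 1 model of 6 groups with sex within each age, on 9 residual degrees of freedom. A gene was called at a Benjamini-Hochberg adjusted p under 0.05 over 16213 genes. Standard errors were computed from each log2 fold change and its F statistic. DESeq2 1.42.0, limma-voom, other scalings, filters and sex terms, and leaving out each library were alternatives. Named in full were called genes and, for asparaginase, the gene with the largest fold change per role; of the other haemostasis list, up to 4 called genes by smallest p. Fibrinogen chains, antithrombin, kininogens and genes near the threshold were added after their values were seen. Lengths come from GENCODE M21 (35533 of 37315 identifiers matched), and promoters from RefSeq (GRCm38.p6). The scripts were tested on simulated counts. Figures used Python 3.11.15 and matplotlib 3.10.9. Genes and lists were drawn up by role, with earlier results of these data known. Replicate numbers follow deposition order. Some genes of the other lists are not reported here.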

Additional observations from a re-analysis of the deposited data

Results flagged for a closer look

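In 4 genes all asparaginase libraries lay above the PBS libraries at 1 age and all below them at another. The share of all genes that turned direction in this way was not computed. At 2, 8 and 16 weeks 16.7%, 15.9% and 19.7% of all genes did not overlap between the groups. The effect of asparaginase on Fga, on the log2 scale, was higher at 16 than at 8 weeks by 1.0325 (edgeR adjusted p of the difference = 0.323). That on Tfpi2 was higher at 16 than at 8 weeks by 0.9939 (edgeR adjusted p = 0.315), and that on Serpina10 by 0.6951 (edgeR adjusted p = 0.515). The effect on F5 at 16 minus 2 weeks was -0.5981 (edgeR adjusted p = 0.548). None of these 4 differences passed the threshold.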

How the results depend on the processing

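Of 6688 values of single genes under the alternatives, 6111 kept their direction and side of the threshold, 72 lost a call, 120 gained one, 21 changed sign with a call in either setting and 364 changed sign without one. With DESeq2 the counts of genes called were 3, 2 and 6 at 2, 8 and 16 weeks (0 in edgeR), 8 in the mean over ages (3 in edgeR), 2 for a difference between ages (0), 2 for 16 against 8 weeks (0) and 5 between the sexes (3). With limma-voom 1 gene was called at 2 weeks and 1 for 16 against 8 weeks. Shares of all genes under DESeq2 and limma-voom are given above, except for DESeq2 in the mean and between the sexes. For the counts that follow they are not given here, except for age over both treatments (51.4%). Without the filter on low counts 1 gene each was called at 2 weeks, at 8 weeks and for 16 against 8 weeks. With library totals and no TMM the counts were 5 at 8 weeks, 3 at 16 weeks, 10 in the mean, 30 between adult and 2-week livers (8 with TMM) and 31 between the sexes. That scaling moves the median of all genes by -0.753 for age, -0.507 for sex, 0.365 for asparaginase at 8 weeks, 0.247 at 16 weeks and 0.213 for the mean effect. All 5 calls at 8 weeks, the 3 at 16 weeks and 9 of the 10 in the mean were then higher with asparaginase. In it, among genes called in either setting, the age difference turned to -0.76 for F7, -0.69 for F5, -0.71 for Fga, -0.69 for Fgb, -0.73 for Fgg, -0.67 for F11, -0.42 for F9, -0.13 for Serpina10, -0.67 for Proc, -0.71 for Proz, -0.46 for Cpb2 and -0.67 for Vkorc1. The sex difference turned to -0.45 for F5, -0.47 for F12, -0.41 for F9, -0.49 for F8, -0.46 for Proc, -0.50 for Pros1, -0.46 for Proz, -0.41 for Cpb2 and -0.49 for Ggcx. Between adult and 2-week livers 5 genes were called without a sex term, none of them of fibrinolysis, and 5 from the libraries of the comparison alone. With 1 sex term 1 was called for 16 against 8 weeks. Without the libraries of mixed sex the calls in the mean were not kept. That fit also had no sex term at 2 weeks and left replicate 3 as the only 2-week PBS library. Alternatives chosen after seeing the data gave, without the squamous-rich libraries, 1 call in the mean and 0 between the sexes; with totals free of Mup genes, 5 in the mean and 13 for age; and 15 for age over both treatments. Leaving out each library in turn gave 0 to 1 calls at 2, 8 and 16 weeks and for 16 against 8 weeks, 0 to 7 in the mean, 3 to 11 for age and 0 to 4 for sex. Where a call was lost, the cause was not tested. No paired analysis was possible because the replicate numbers only follow deposition order and tie no library of one group to a library of another.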
